A study of Mus musculus with 9 samples.

Results

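The amino acid transporter genes analysed here are the protein-coding mouse genes whose symbols belong to the families Slc1, Slc3 (Slc3a1 and Slc3a2), Slc7, Slc36, Slc38 and Slc43, leaving out Slc7a11 and Slc38a4. The rule used symbols only, without measured values, and found 40 genes among 47643 in the files. Of the 40, 24 reached a sum of 100 counts over the 9 libraries and were tested, among 14105 genes tested in all. RNA came from FACS-sorted pancreatic ductal adenocarcinoma (PDAC) cells of TAM-treated mice, with GFP+Yap+ cells sorted from KPF tumors (6 libraries) and Tm+Yap− cells sorted from KPYYF tumors (3 libraries). KPF mice carried Trp53 frt/+, Pdx-Flp and R26 FSF-CreER/Dual beside an oncogene allele, and KPYYF mice carried the same alleles together with Yap flox/flox. Pdx-Flp turned on the oncogene, the deletion of Trp53 and EGFP in the pancreas. The TAM diet, started once tumors could be felt, activated CreER, which exchanged EGFP for Tm and removed Yap from floxed cells. The study used mice of both sexes aged 5 to 35 weeks, and no age or sex is given for single libraries. GFP+ cells are those in which this exchange had not taken place, and Tm+ cells came from relapsed nodules, so genotype, Yap status, reporter color and Cre activity cannot be told apart. Xist, which silences an X chromosome in female cells, had 3452 to 16108 counts in all 3 KPYYF libraries and 5878 to 10933 in KPF libraries 4435, 4504h and 4504s, but 71 to 159 in KPF libraries 4269, 4515 and 4601. Female cells were thus unevenly spread over the groups, and a comparison within the 6 libraries with high Xist was run as an alternative. KPF libraries 4504h and 4504s share a mouse number. No source says that every other library is a separate animal beyond its mouse number, and p values measure the spread between these libraries.

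Amino acid transporters move amino acids across the plasma membrane and the membranes of lysosomes. Slc1a5 (ASCT2) and the sodium-coupled carriers Slc38a1 and Slc38a2 bring glutamine and other small neutral amino acids into cells. Light chains of the Slc7 family, such as Slc7a5 (LAT1), work as exchangers and need a heavy chain, for most of them Slc3a2 (CD98), to reach the cell surface. The cationic carriers Slc7a1 to Slc7a3 take up arginine and lysine, and lysosomal members such as Slc38a9 report amino acids to mTORC1. PDAC cells are known for a high demand for glutamine, and Yap and its paralog Taz are known to activate Slc7a5 and Slc38a1 in other cell types.

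Libraries had 8116539 to 9635514 reads on genes, and levels are given as CPM, counts scaled to a library of 1000000 reads after TMM correction. Each read tags the 3′ end of a transcript, so CPM was not divided by gene length. A count of 0 allows up to 3 counts, or 0.292 to 0.437 CPM, a limit that covers counting error only. Yap1 was at 41.8 to 151 CPM in KPF libraries and at 0.712, 2.84 and 7.12 CPM in KPYYF libraries, and since these reads tag the transcript end, they check its level and not the deleted exons. Markers of ductal and PDAC epithelium summed to 3867 to 12642 CPM in KPF and 679 to 2322 CPM in KPYYF libraries, with all 10 lower and 3 of them (Krt18, Cdh1 and Muc1) at an adjusted p under 0.05 in edgeR. Immune markers summed to 446 to 1573 CPM in 5 KPF libraries, 10105 CPM in KPF library 4601 and 389 to 775 CPM in KPYYF libraries, and all 8 tested were lower without an adjusted p under 0.05. Acinar markers reached 22375 CPM in KPF library 4504s and 7259 CPM in KPYYF library 4449, against 73.4 to 1126 CPM in the other libraries. Fibroblast markers ranged from 421 to 5641 CPM in KPF and from 1128 to 3192 CPM in KPYYF libraries. Endothelial markers were at 18.6 to 88.4 and 10.5 to 43.5 CPM, islet markers at 2.45 to 111 and 4.71 to 20.4 CPM, and Schwann cell and neural markers, with no count for Sox10, at 155 to 314 and 40.7 to 213 CPM. At an unadjusted p under 0.05 in edgeR, 2 of 6 tested endothelial, 3 of 8 islet and 2 of 3 Schwann cell and neural markers were lower, and of the latter S100b (15.8 to 90.9 CPM in KPF and 0.547 to 7.36 CPM in KPYYF libraries) had an adjusted p of 0.0357 and Mbp (14.3 to 191 and 9.73 to 12.9 CPM) one of 0.0618. Pdgfra was higher and Acta2 lower among the 10 fibroblast markers at an unadjusted p under 0.05. Of all genes tested, 6.10% were higher and 10% lower at this threshold, and 0.794% were lower at an adjusted p under 0.05. No library repeated another. In such bulk libraries fewer cells of one type and less RNA per cell cannot be told apart.

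Slc7a7 was lower in all 3 Tm+Yap− libraries than in any GFP+Yap+ library, while Slc1a5 and Slc7a5 had the largest positive log2 fold changes of the 24 tested transporters. None of the 24 tested transporters had an adjusted p under 0.05 in either direction by edgeR's quasi-likelihood test (Benjamini-Hochberg), where 1.10% of all genes tested did (0.305% higher and 0.794% lower). At an unadjusted p under 0.05, 2 were higher and 4 lower, 6 of 24, against 16.1% of all genes tested (6.10% higher and 10% lower). With the additional limit of a more than 2-fold change, 2 were higher and 3 lower, against 4.20% and 9.20% of all genes, or 13.4% in either direction. The groups did not overlap in 1 transporter, Slc7a7, and in 9.10% of all genes (3.92% higher and 5.18% lower). Of the 24 log2 fold changes, 17 (70.8%) were negative and 7 positive, where 53.3% of all genes were negative and 46.7% positive, and the median was -0.39 beside -0.07 over all genes. These counts are to be read against the shares of all genes, and the family as a whole is not called changed.

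**Figure D1:**
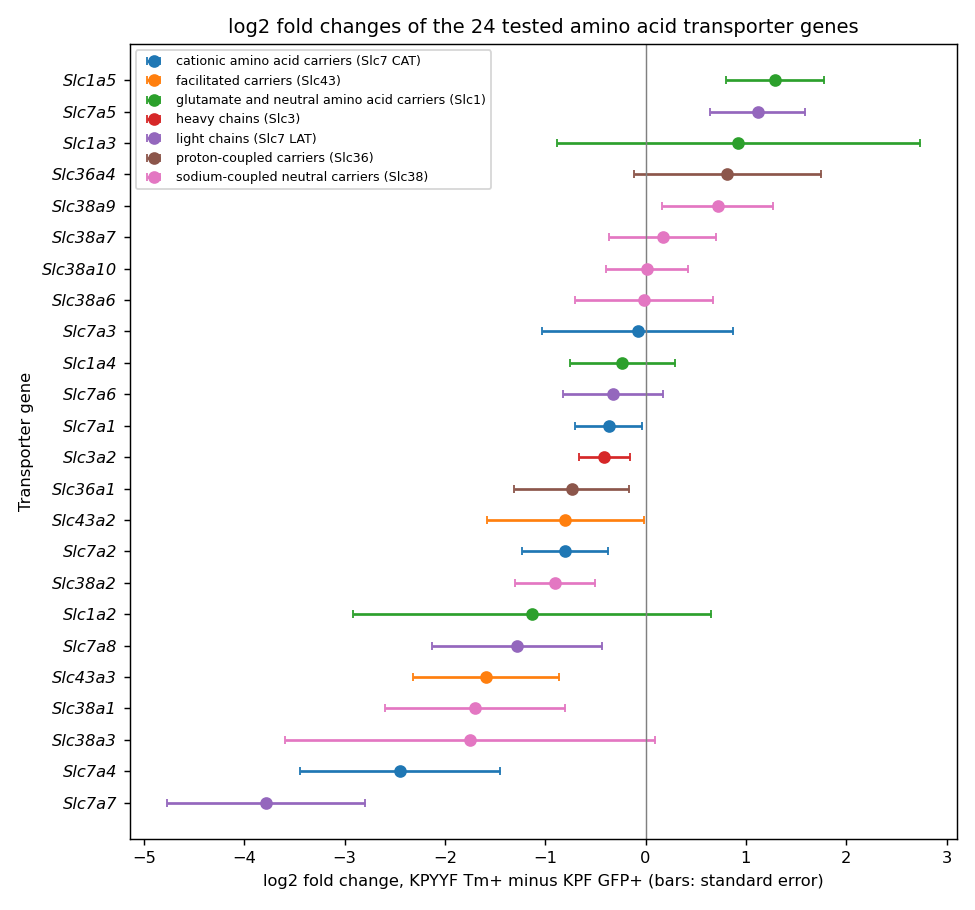
Log2 fold change of each of the 24 tested transporter genes (KPYYF Tm+ minus KPF GFP+, horizontal axis), colored by family, with bars for the standard error from edgeR. Slc1a5 (1.29) and Slc7a5 (1.12) lie farthest to the right and Slc7a7 (-3.78) farthest to the left, and most of the 24 lie below 0.

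Promoter sequence is shown for Slc7a7, the transporter with the lowest p value, and for Slc1a4, the only other one of the 29 genes searched with an element for the amino acid response factor Atf4. Windows of 300 bases around RefSeq start sites (assembly GRCm38.p6) were matched for 29 of the 40 genes, in 38 windows, and were searched on both strands for the Atf4 element TTNCATCA, the E-box CACGTG bound by Myc and the Tead element CATTCC, since Tead factors carry Yap to DNA. In the 30-base stretches printed 5′ to 3′ on the minus strand, capitals mark the element, in either orientation.
Slc1a4, Atf4 element from 4 bases before a start site, chr11:20332699-20332728: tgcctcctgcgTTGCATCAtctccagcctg
Slc7a7, Atf4 element from 141 bases before a start site, chr14:54418067-54418096: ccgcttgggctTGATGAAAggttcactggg
Slc7a7, Atf4 element from 243 bases before another start site, chr14:54417923-54417952: tagaagcTGATGCAAcagcttccccgaggg
Slc7a7, Tead element from base 41 after a start site, chr14:54417630-54417659: agggtatccgcagtctttttCATTCCccgg
Slc7a7, Tead element from 208 bases before another start site, chr14:54409663-54409692: gacaggtatctgGGAATGgaaaagcagtac
The Atf4 element was present in 3 of the 38 windows and in 3.97% of all 32851 promoter windows. These were the window of Slc1a4 and overlapping windows of Slc7a7. The Slc7a7 element printed as 243 bases before a start site lies in each of these Slc7a7 windows. In the window that also holds the element at 141 bases, it lies just before the start site. The Tead element was present in 7 of the 38 windows (Slc1a2, Slc1a6, Slc36a1, Slc43a1, Slc43a2 and Slc7a7) and in 14.7% of all windows. E-boxes were present in 7 of the 38 (Slc1a6, Slc1a7, Slc36a1, Slc38a5, Slc38a7, Slc43a1 and Slc7a14) and in 7.15% of all windows. A match is a description of these letters and not evidence of binding. Slc7a7 had more windows than any other gene searched, some of them overlapping, so a match somewhere was more likely for it. Slc1a5, Slc7a5, Slc7a4 and Slc43a3 had no window and were not searched.

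Slc7a7 (ENSMUSG00000000958, chr14:54369442-54417780 on GRCm38, minus strand) encodes y+LAT1, a light chain that pairs with Slc3a2 and exports cationic amino acids in exchange for neutral ones and sodium. Its loss in humans causes lysinuric protein intolerance. It was at 11.1 CPM in the lowest, 16.1 CPM at the median and 22.3 CPM in the highest KPF library, and at 1.54, 0 and 1.97 CPM in KPYYF libraries 4449, 4891 and 4938. Every KPYYF library was far below the lowest KPF library. The mean was 16.3 ± 3.62 CPM (SD, n = 6) in KPF and 1.17 ± 1.04 CPM (SD, n = 3) in KPYYF libraries, 13.9-fold lower. In edgeR's quasi-likelihood test, the log2 fold change was -3.78 (standard error 0.98, unadjusted p = 0.00199, adjusted p = 0.0912). The two-sided exact permutation test over all 84 divisions into 6 and 3 gave 0.0119, the smallest p it can give. The unadjusted p was under 0.05 in all 17 alternative fits, and the adjusted p ranged from 8.39e-05 (DESeq2) to 0.243 (edgeR, the 6 libraries with high Xist). Oxa1l, on the opposite strand across the 3′ end of Slc7a7, was at 16.5 to 39.6 CPM in KPF and 26.4 to 48.1 CPM in Tm+Yap− cells (log2 fold change 0.37, unadjusted p = 0.384 in edgeR), and the strand setting of the counting is not given in the sources used here. Slc7a7 is also expressed in macrophages, and in KPF library 4601, where immune markers were highest, it was at 15.6 CPM, within the range of the other KPF libraries. The part of immune cells in the result was not tested. The sum of the epithelial markers, lower in every KPYYF library than in any KPF library, moved with it. Among the single markers, Krt19, Krt7, Krt18, Cdh1 and Muc1 were lower without overlap between the groups, as Slc7a7 was. Krt8, Epcam, Sox9, Tspan8 and Cldn4 overlapped. The part of these markers in the result was not tested either.

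**Figure D2:**
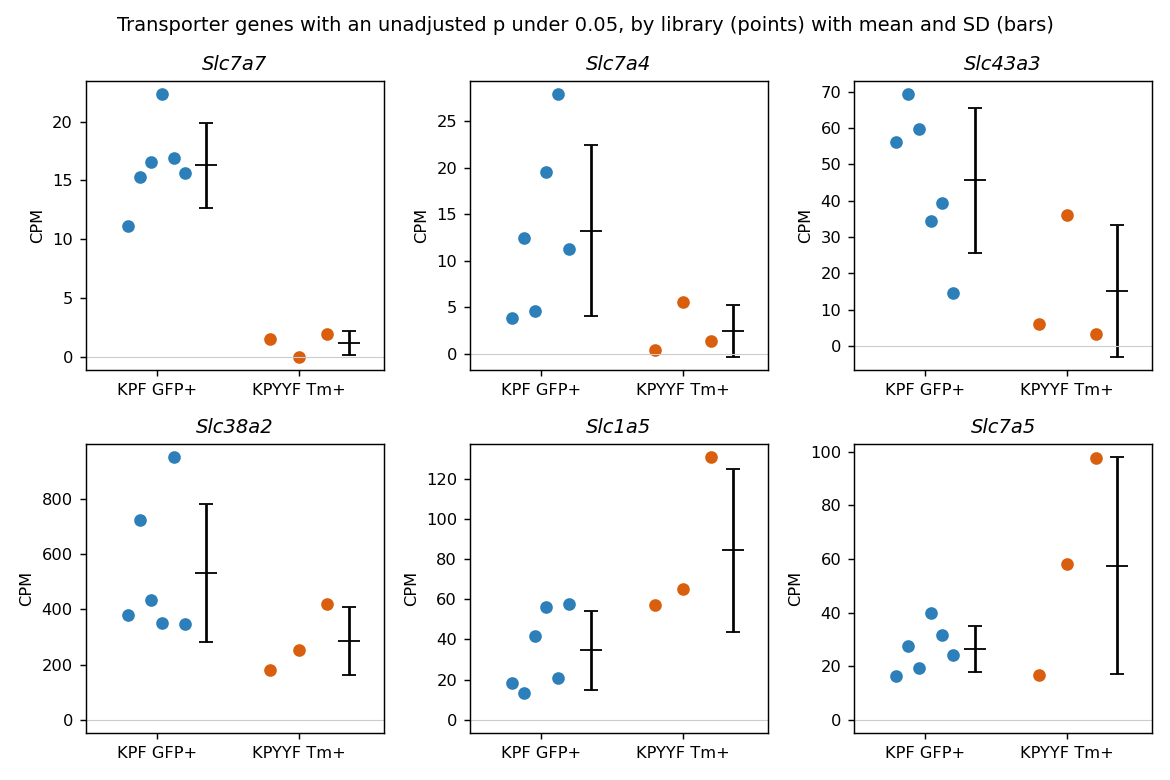
CPM of the 6 transporter genes with an unadjusted p under 0.05 in each library (vertical axes, linear, scaled per gene), with KPF GFP+ (6 points) and KPYYF Tm+ (3 points) libraries and bars for mean and SD. The groups are apart only in Slc7a7, whose KPYYF libraries reach 1.97 CPM at most against 11.1 CPM in the lowest KPF library.

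Slc1a5 (ENSMUSG00000001918, chr7:16781340-16798274, plus strand), the glutamine carrier ASCT2, was the transporter with the largest positive log2 fold change. Its level was 13.1, 31.1 and 57.6 CPM in the lowest, the median and the highest KPF library, and 57.2, 65.1 and 131 CPM in KPYYF libraries 4449, 4891 and 4938. KPYYF library 4449 lay just below the highest KPF library, 4601, so that the groups overlapped by this pair alone. Means were 34.6 ± 19.9 CPM (SD, n = 6) and 84.4 ± 40.5 CPM (SD, n = 3), with a log2 fold change of 1.29 in edgeR (standard error 0.49, unadjusted p = 0.0198, adjusted p = 0.208) and a two-sided exact permutation p = 0.0357. The unadjusted p was under 0.05 in 15 of 17 alternative fits. Without KPYYF library 4938, the log2 fold change was 0.83 (unadjusted p = 0.163 in edgeR), and among the 6 libraries with high Xist it was 1.20 (unadjusted p = 0.0571).

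The other glutamate and neutral amino acid carriers of the Slc1 family were low. Slc1a4 (ASCT1), a carrier of serine and alanine, was at 12.4 CPM at the KPF median and at 10.4 to 11.9 CPM in KPYYF cells (log2 fold change -0.23, standard error 0.52). The glutamate carriers Slc1a2 and Slc1a3, best known from glia, were at 0 to 6.91 and 0 to 4.21 CPM in KPF and at 0 to 3.72 and 0 to 7.22 CPM in KPYYF libraries, with standard errors of 1.78 and 1.81 around log2 fold changes of -1.13 and 0.93. The glutamate carrier Slc1a1 had 88 counts in all and Slc1a6 had 7, and Slc1a7 had none. Summed over the 7 Slc1 genes, KPF libraries had 26.2 to 76.2 CPM and KPYYF libraries 69.2, 86.5 and 143 CPM, and most of each KPYYF sum was Slc1a5.

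Among the light and heavy chains, Slc7a5 (ENSMUSG00000040010, chr8:121881150-121907694, minus strand), which imports leucine and other large neutral amino acids, was at 16.2, 25.9 and 39.9 CPM in the lowest, the median and the highest KPF library. KPYYF libraries had 16.7, 58.1 and 97.9 CPM. Libraries 4891 and 4938 were above every KPF library, and library 4449 was as low as the lowest of them. The means of 26.5 ± 8.57 CPM (SD, n = 6) and 57.6 ± 40.6 CPM (SD, n = 3) gave a log2 fold change of 1.12 in edgeR (standard error 0.47, unadjusted p = 0.0340, adjusted p = 0.259), while the exact permutation test gave p = 0.190. The unadjusted p was above 0.05 without KPF library 4269 (0.0609), 4435 (0.0502) or 4504h (0.0623) and without KPYYF library 4891 (0.0696) or 4938 (0.362). Without library 4938 the log2 fold change was 0.50.

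Slc3a2 (ENSMUSG00000010095, chr19:8706882-8723369, minus strand), the heavy chain shared by these exchangers, was at 133, 173 and 214 CPM in the lowest, the median and the highest KPF library and at 143, 131 and 119 CPM in KPYYF libraries 4449, 4891 and 4938. Of the 4 transporters with most reads it had the smallest spread over KPF libraries, and its groups overlapped in library 4449. The log2 fold change was -0.41 (standard error 0.26, unadjusted p = 0.134, adjusted p = 0.473 in edgeR), and the exact permutation p was 0.0476. Slc7a6 (y+LAT2), the closest relative of Slc7a7, was at 22.9 to 116 CPM in KPF and at 40.6 to 42.4 CPM in Tm+Yap− cells (log2 fold change -0.33, standard error 0.50). Slc7a8 (LAT2) was at 5.45 to 22.6 and 0.831 to 7.78 CPM (log2 fold change -1.28, standard error 0.85). Slc3a1, the heavy chain of the renal cystine carrier, had 84 counts with 5.76 CPM in KPF library 4515, and its partner Slc7a9 had 7 counts. Slc7a10, Slc7a12, Slc7a13 and Slc7a15 had none.

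Set against Slc3a2 in the same library, the light chains differed in direction. The log2 CPM of Slc7a5 minus that of Slc3a2 was -2.75 ± 0.58 (SD, n = 6) in KPF and -3.08, -1.17 and -0.29 in KPYYF libraries 4449, 4891 and 4938, so that in library 4938 the reads of Slc7a5 came near those of its heavy chain. For Slc7a7 the difference was -3.41 ± 0.52 (SD, n = 6) in KPF, with a lowest value of -4.06, and -6.34 and -5.77 in KPYYF libraries 4449 and 4938, without overlap. Library 4891 had no Slc7a7 read, so its value of -9.21 is set by the prior count and is not a measured ratio. For Slc7a6 it was -1.98 ± 0.76 (SD, n = 6) and -1.66 ± 0.16 (SD, n = 3), and for Slc7a8 -4.10 ± 1.07 (SD, n = 6) in KPF and -7.09, -4.48 and -3.90 in KPYYF libraries. These differences rest on the same counts as the tests above and are given as a description. Over the 6 KPF libraries, log2 CPM of Slc3a2 and of its light chains had Pearson's r of -0.17 for Slc7a5, 0.67 for Slc7a6, -0.55 for Slc7a7 and -0.64 for Slc7a8, with exact permutation p of 0.735, 0.161, 0.272 and 0.219 (adjusted over the 4 pairs, 0.363 to 0.735). Spearman's rho was -0.03, 0.60, -0.37 and -0.31, with exact permutation p of 1, 0.242, 0.497 and 0.564 (adjusted, 0.752 to 1). Without the 2 libraries farthest from the median of Slc3a2, r was 0.21, 0.79, -0.51 and -0.41, so no pair was shown to vary together.

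**Figure D3:**
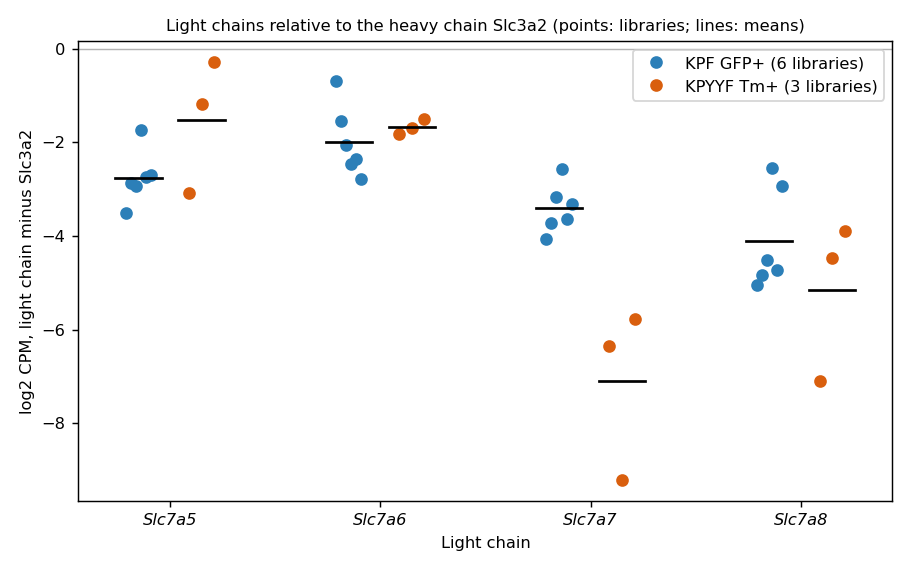
Log2 CPM of each light chain minus log2 CPM of the heavy chain Slc3a2 in the same library (vertical axis), with points for libraries and lines for group means. KPYYF libraries lie below all KPF libraries for Slc7a7 (-5.77 at most against -4.06 at least, with the point at -9.21, and through it the line, set by the prior count), and 2 of the 3 lie above them for Slc7a5.

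Among the cationic carriers, Slc7a1 (ENSMUSG00000041313, chr5:148327410-148399904, minus strand), the broadly expressed arginine importer CAT1, was at 81.6, 110.0 and 213 CPM in the lowest, the median and the highest KPF library. KPYYF libraries had 103, 85.5 and 98.9 CPM, all inside the KPF range (log2 fold change -0.37, standard error 0.34, unadjusted p = 0.294 in edgeR). Slc7a2 (CAT2), the arginine carrier known for its role beside nitric oxide synthase and arginase, was at 34.3 to 71.9 CPM in KPF and at 47.6, 21.5 and 13.9 CPM in KPYYF libraries 4449, 4891 and 4938 (log2 fold change of -0.80, standard error 0.43, unadjusted p = 0.0841 in edgeR). For Slc7a2 the exact permutation p was 0.0476. Slc7a3 (CAT3) stayed at 9.41 CPM or less in every library (log2 fold change -0.08, standard error 0.95).

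Slc7a4 (ENSMUSG00000022756, chr16:17572018-17583214, minus strand) resembles the cationic carriers in sequence but has no established transport activity. It was at 3.79, 11.8 and 27.9 CPM in the lowest, the median and the highest KPF library and at 0.356, 5.58 and 1.32 CPM in KPYYF libraries 4449, 4891 and 4938. Library 4891 lay within the KPF range, and libraries 4449 and 4938 below it. The log2 fold change was -2.44 in edgeR (standard error 1.00, unadjusted p = 0.0287, adjusted p = 0.240) and the exact permutation p = 0.0357. The unadjusted p was above 0.05 without KPF library 4504s (0.0613) or 4515 (0.0785) and without KPYYF library 4449 (0.0715) or 4938 (0.0880). Slc7a14, a lysosomal relative, had 21 counts.

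The sodium-coupled carrier Slc38a2 (ENSMUSG00000022462, chr15:96687392-96699730, minus strand), also called SNAT2 and known to be raised when amino acids run short, had the most reads of all 40 genes. It was at 348, 406 and 951 CPM in the lowest, the median and the highest KPF library. In KPYYF libraries 4449, 4891 and 4938 it was at 179.9, 252 and 420.3 CPM. Libraries 4449 and 4891 were below every KPF library, and library 4938 was above the KPF median. Means were 531 ± 250.2 CPM (SD, n = 6) and 284 ± 123 CPM (SD, n = 3), with a log2 fold change of -0.90 in edgeR (standard error 0.40, unadjusted p = 0.0424, adjusted p = 0.284) and an exact permutation p = 0.107. Without KPF library 4435 or 4515, the 2 highest, the unadjusted p was 0.0825 and 0.114, and without KPYYF library 4449 or 4891 it was 0.168 and 0.118.

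Slc38a10 (ENSMUSG00000061306, chr11:120103960-120151346, minus strand), a carrier with less settled substrates, was at 34.8, 47.6 and 105 CPM in the lowest, the median and the highest KPF library and at 51.5, 53.5 and 77.3 CPM in KPYYF libraries. Its group means were nearly equal (log2 fold change 0.02, standard error 0.41, unadjusted p = 0.968 in edgeR). Slc38a1 (SNAT1), which imports glutamine, ranged from 1.64 to 63.0 CPM in KPF and from 3.21 to 12.7 CPM in KPYYF libraries. The fitted log2 fold change was -1.70 (standard error 0.90, unadjusted p = 0.0810 in edgeR), beside a 38.4-fold range between KPF libraries. The lysosomal arginine sensor Slc38a9 was at 4.92 to 24.5 and 12.7 to 39.6 CPM (log2 fold change 0.72, standard error 0.56), and the lysosomal glutamine carrier Slc38a7 at 3.99 to 33.7 and 26.1 to 28.9 CPM (0.17, standard error 0.53). Slc38a6 was at 2.43 to 17.4 and 7.34 to 10.8 CPM (log2 fold change -0.02, standard error 0.69). Slc38a3 (SNAT3), the glutamine carrier of liver and kidney, was at 0.0973 to 11.4 and 0 to 3.39 CPM (log2 fold change -1.75, standard error 1.84). All 20 counts of Slc38a5 (SNAT5), known from acinar cells, were in KPF library 4504s, which also had the highest sum of acinar markers. Slc38a8 and Slc38a11 had no count.

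Slc43a3 (ENSMUSG00000027074, chr2:84936579-84958509, plus strand) belongs to the Slc43 family by sequence and is known as a purine nucleobase carrier. It was at 14.7, 47.8 and 69.4 CPM in the lowest, the median and the highest KPF library and at 6.06, 36.1 and 3.29 CPM in KPYYF libraries 4449, 4891 and 4938. KPYYF libraries 4449 and 4938 were below all KPF libraries, while library 4891 was within their range. The log2 fold change was -1.59 in edgeR (standard error 0.73, unadjusted p = 0.0482, adjusted p = 0.304) and the exact permutation p = 0.0357. The unadjusted p was under 0.05 in 6 of 17 alternative fits. When each library in turn was left out, it was under 0.05 in 2 of 9 fits, those without KPF library 4601 (0.0265) or KPYYF library 4891, where the log2 fold change was -3.29. Slc43a2 (LAT4), a carrier of large neutral amino acids, was at 9.96 to 36.9 CPM in 5 KPF libraries, at 114 CPM in KPF library 4601, the library with the highest immune markers, and at 11.0 to 34.7 CPM in KPYYF libraries. The fitted log2 fold change was -0.80 (standard error 0.78) with and 0.11 without library 4601. Slc43a1 (LAT3) had 61 counts. The sum of the 3 Slc43 genes was 50.7 to 131 CPM in KPF libraries and 20.7, 47.3 and 38.9 CPM in KPYYF libraries.

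The proton-coupled carriers were low and mixed. Slc36a1 (PAT1), which exports small amino acids from lysosomes, was at 6.66 to 29.6 CPM in KPF and 7.56 to 15.9 CPM in Tm+Yap− cells (log2 fold change -0.74, standard error 0.57). Slc36a4 (PAT4) was at 0.885 to 9.92 and 0.767 to 20.4 CPM (log2 fold change 0.82, standard error 0.94). Slc36a2 had 29 counts and Slc36a3 none.

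**Figure D4:**
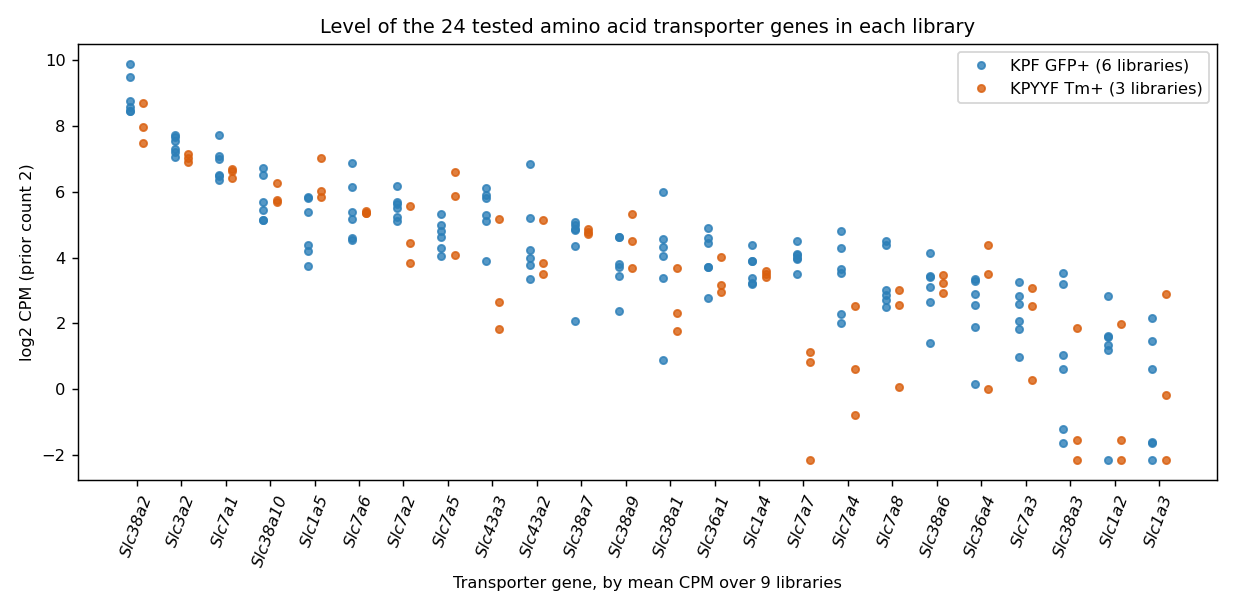
Log2 CPM (prior count 2, vertical axis) of the 24 tested transporter genes in every library, ordered by mean CPM over the 9 libraries (horizontal axis). Slc38a2 lies highest in all libraries, and most genes spread over more than 4-fold among KPF libraries.

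In reads, Slc38a2 led with a mean of 449 CPM over the 9 libraries, before Slc3a2 (160.1 CPM), Slc7a1 (114 CPM) and Slc38a10 (60.3 CPM). The following means, from Slc1a5 (51.2 CPM) through Slc7a6, Slc7a2, Slc7a5 and Slc43a3 (35.5 CPM), lay within the spread of single libraries. In 11 transporters the mean exceeded 20 CPM, and 20 of the 24 tested were counted in all 9 libraries. Among 22 transporters counted in every KPF library, the highest KPF library was at a median of 4.58 times the lowest, and in 14 the ratio exceeded 4. The sum over all 40 genes was 1092 to 1789 CPM in KPF libraries (median 1162) and 776, 912 and 1128 CPM in KPYYF libraries 4449, 4891 and 4938. Slc38a2 was 28.8 to 53.2% of that sum in KPF and 23.2, 27.6 and 37.3% in KPYYF libraries. Slc1a5 was 0.892 to 5.14% in KPF and 7.38, 7.13 and 11.6% in KPYYF libraries, without overlap between the groups. Its CPM did overlap, at 57.2 in KPYYF library 4449 and 57.6 in KPF library 4601. The sums over the 40 genes in these libraries were 776 and 1208 CPM, so the shares depend on the sum too. Slc7a5 was 1.46 to 3.65% in KPF and 2.16, 6.37 and 8.68% in KPYYF libraries. Slc3a2 took 11.9 to 16.9% and 18.5, 14.4 and 10.6%, with no common direction in the KPYYF libraries.

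**Figure D5:**
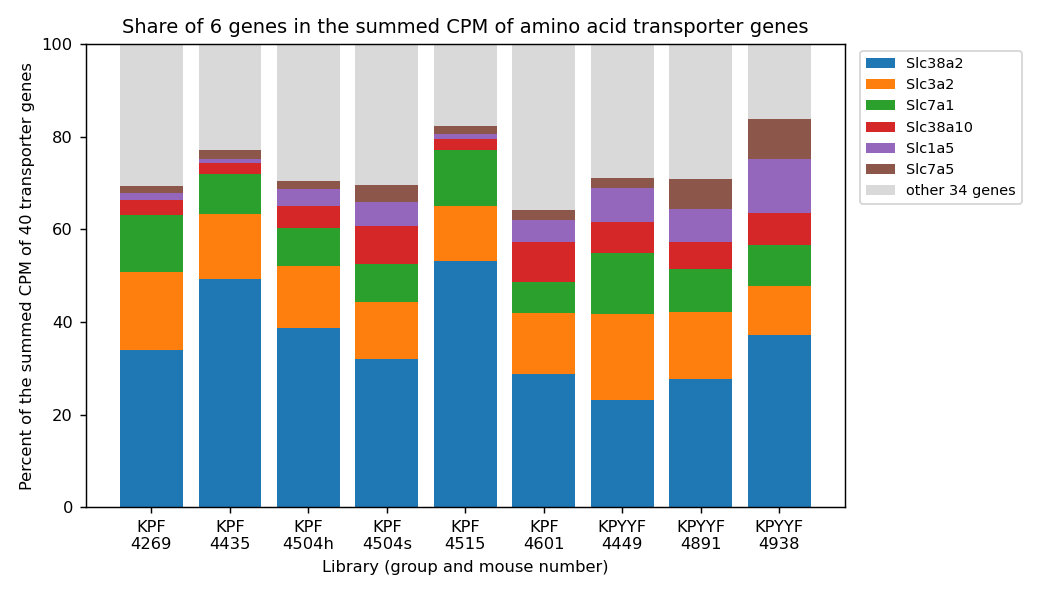
Percent of the summed CPM of the 40 transporter genes taken by 6 of them in each library (vertical axis, stacked from 0 to 100, libraries on the horizontal axis). The band of Slc1a5 is thin in KPF libraries (5.14% at most) and wider in all 3 KPYYF libraries (7.13% at least). The shares depend on the summed CPM too, and the CPM of Slc1a5 overlapped between the groups.

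Other genes of amino acid metabolism were described by lists chosen apart from the transporters. Of 24 enzyme genes, 23 were tested, with none at an adjusted p under 0.05 and a median log2 fold change of 0.01. At an unadjusted p under 0.05 in edgeR, 2 were higher and 5 lower, against 6.10% and 10% of all genes tested. Of all genes tested, 5.18% were lower without overlap between the groups. Among the higher enzyme genes was Bcat1, the cytosolic transaminase of branched-chain amino acids (0.111 to 13.9 CPM in KPF and 11.6 to 35.6 CPM in KPYYF libraries). Its log2 fold change was 2.07 (unadjusted p = 0.0399 in edgeR). The mitochondrial transaminase Bcat2 and Dbt, a subunit of the branched-chain ketoacid dehydrogenase, were lower without overlap between groups, with log2 fold changes of -1.26 and -1.55 (unadjusted p = 0.0200 and 0.00838 in edgeR). These enzymes break down leucine, isoleucine and valine, which Slc7a5 imports. Glul, which makes glutamine, was at 348 ± 327 CPM (SD, n = 6) and 117 ± 40.3 CPM (SD, n = 3), with a log2 fold change of -1.57 (unadjusted p = 0.0324 in edgeR). The arginases, which split the arginine imported by cationic carriers, were lower at an unadjusted p under 0.05 too. Arg1 was at 12.6 to 708 CPM in KPF, highest in library 4601, where immune markers were highest, and at 17.0 to 23.8 CPM in KPYYF libraries, and Arg2 at 0.102 to 15.4 CPM and 0 to 0.119 CPM, the latter at most 1 count (unadjusted p = 0.0301 and 0.00410 in edgeR).

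No gene of the amino acid response, a list that includes Atf4 itself and Eif2ak4, passed an unadjusted p of 0.05 in edgeR. Of the 16 genes listed, 15 were tested, with a median log2 fold change of -0.14 and extremes of 0.81 for Stc2 and -1.67 for Chac1. Among 27 tested genes of amino acid sensing by mTORC1, 1 was higher and none lower at an unadjusted p under 0.05 in edgeR. Of all genes tested, 6.10% were higher and 10% lower at that threshold. The mTORC1 genes had a median of -0.01, with Depdc5 the lowest (-0.69). The higher one was Rragd, a GTPase that recruits mTORC1 to lysosomes, at 0 to 5.47 CPM in KPF and 6.90 to 37.3 CPM in Tm+Yap− cells (log2 fold change 3.07, standard error 1.24, unadjusted p = 0.0273, adjusted p = 0.234 in edgeR). The 20 aminoacyl-tRNA synthetase genes had a median of 0.30, with 15 positive, 5 negative and Dars the highest (0.65). Wars, which charges tryptophan tRNA and is known to respond to interferon, was apart from them, at 129 ± 61.0 CPM (SD, n = 6) and 34.2 ± 9.79 CPM (SD, n = 3). Its groups did not overlap, where 5.18% of all genes tested were lower without overlap. The log2 fold change of Wars was -1.92 (standard error 0.43, unadjusted p = 6.09e-04, adjusted p = 0.0514 in edgeR).

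Of 28 carriers of amino acids or peptides in other families, 15 were tested, with a median of -0.22. An adjusted p under 0.05 was found in 1 of them, against 1.10% of all genes tested. That one was Slc15a2, which imports di- and tripeptides, at 2.66 to 15.3 CPM in KPF and 0.109 to 0.356 CPM in KPYYF libraries, where it had at most 3 counts per library (adjusted p = 0.0441 in edgeR). Its call was kept in 1 of the 9 fits that left out one library, that without KPYYF library 4449 (adjusted p = 0.0433), and was lost in the other fits, with an adjusted p of up to 0.134. The fitted log2 fold change, -5.21 with all libraries, was -5.64 to -4.88 in these 9 fits, with an unadjusted p of 0.00221 or less in edgeR, and depends on the prior count at so few reads. Slc25a12, the mitochondrial aspartate and glutamate exchanger, was higher at an unadjusted p under 0.05, from 16.9 ± 7.78 CPM (SD, n = 6) to 38.5 ± 10.2 CPM (SD, n = 3), 1.19 on the log2 scale (standard error 0.44, unadjusted p = 0.0190, adjusted p = 0.204 in edgeR).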

How the data were processed

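RNA of FACS-sorted GFP+Yap+ (KPF, 6 libraries) and Tm+Yap− (KPYYF, 3 libraries) PDAC cells was made into Lexogen QuantSeq 3′ libraries. The authors deposited raw read counts per Ensembl gene for each library. The submitters' processing notes name STAR, HTSeq and mm10, without versions, while the study's methods describe BeadChips, a filter on a sum of 100 reads and DESeq2. Per file, 37.3 to 42.0% of reads fell on genes. The lines for multiple alignments (43.8 to 53.4%), no feature (8.63 to 16.0%) and ambiguity (0.231 to 0.312%) were left out. Reads shared between near-identical genes were thus not counted.

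Symbols and positions came from GENCODE M21 (GRCm38), with 47224 of 47643 identifiers matched. The 14105 genes that reached 100 counts over the 9 libraries were compared with edgeR 4.0.16's quasi-likelihood test in R 4.3.3 after TMM scaling (factors 0.833 to 1.08), without covariates. P values are two-sided, adjusted by Benjamini-Hochberg over all 14105 genes, with a threshold of 0.05. Exact permutation tests of log2 CPM (prior count 2) used all 84 divisions of the libraries into 6 and 3. The study's rule of an unadjusted p under 0.05 and a change above 2-fold was applied beside it. The scripts were tested on simulated data whose spread was taken from edgeR's fit. There DESeq2 made more false calls than edgeR and also recovered more of the changes put in.

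The transporter genes and the other lists were chosen with earlier results of these data known. All 40 transporters are accounted for. Values by library were given for those with an unadjusted p under 0.05 or without overlap and for the 4 with most reads, and genes of other lists were named at an unadjusted p under 0.05 or as extremes. Some single items are not reported here. Alternatives were RLE and upper quartile scaling, DESeq2 1.42.0, limma-voom (limma 3.58.1), no filter, filterByExpr, libraries 4504h and 4504s summed, the 6 libraries whose Xist count was in the range of the KPYYF libraries, and each library left out.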

Additional observations from a re-analysis of the deposited data

Results flagged for a closer look

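In a check of the 6 KPF libraries of each of the 24 tested transporters by Dixon's gap test on log2 CPM (critical value 0.625), 2 transporters had a library that lay far from the others. Slc38a7, the lysosomal glutamine carrier, was at 3.99 CPM in KPF library 4269, the lowest value by a gap of 0.758 of the range, while the other KPF libraries were at 20.3 CPM or more. Slc1a2, a glutamate carrier, was at 0 CPM in KPF library 4515, with a gap of 0.670 of the range. Its log2 CPM in that library is set by the prior count, so the size of this gap is not a measured quantity. Chance flags about 1 in 20 groups.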

How the results depend on the processing

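Slc7a7 was lower at an unadjusted p under 0.05 under all 17 alternatives. DESeq2's Wald test called 1 transporter lower at an adjusted p under 0.05, and edgeR called 1 when no filter was set, Slc7a7 in both (adjusted p = 8.39e-05 in DESeq2 and 0.0395 in edgeR). On simulated data DESeq2 made more false calls than edgeR and also recovered more of the changes put in. The other alternatives called 0. With the 6 libraries that have high Xist, the study's rule gave 0 higher and 1 lower transporters. Leaving out each library in turn gave 0 to 2 higher and 1 to 5 lower transporters, 0 higher where KPYYF library 4938 was left out, 1 lower where KPF library 4504s or 4515 was left out and 5 lower where KPYYF library 4891 was left out. Over all genes, 155 had an adjusted p under 0.05 with edgeR, 1197 with DESeq2, 87 with limma-voom, 307 without a filter, 37 with the libraries that have high Xist and 23 to 273 with single libraries left out, 23 without KPYYF library 4891 and 273 without KPYYF library 4449. The median log2 fold change of amino acid enzymes was -0.19 with limma-voom. That of mTORC1 sensing was 0.087 with limma-voom and 0.15 with the high-Xist libraries, and -0.038 to 0.10 when single libraries were left out. That of other carriers was 0.094 with the high-Xist libraries, and that of tRNA synthetases 0.029 to 0.37 when single libraries were left out. Some log2 fold changes turned their sign, the cause of which was not tested: Slc7a6 from -0.33 to 0.19 and Slc36a4 from 0.82 to -0.16 with limma-voom, Slc38a7 from 0.17 to -0.18 with the high-Xist libraries, and Slc38a6 from -0.02 to 0.0012 with RLE scaling, 0.0014 with DESeq2 and 0.14 with libraries 4504h and 4504s summed. Leaving out single libraries gave ranges across 0 for Slc7a3 (-0.66 to 0.41), Slc43a2 (-1.47 to 0.11), Slc7a6 (-0.45 to 0.087), Slc36a4 (-0.039 to 1.37), Slc38a10 (-0.19 to 0.27), Slc38a6 (-0.22 to 0.26) and Slc38a7 (-0.054 to 0.28). No paired analysis was possible because no label links a KPF library to a KPYYF library, and no mouse number occurs in both groups. With 3 KPYYF libraries and this spread between KPF libraries, a p above the threshold does not show that a transporter is unchanged.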
